A study of Mus musculus with 22 samples.

Results

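A set of 1132 ATAC-seq peaks opened in mouse KIT-positive spermatogonia and had low signal in later germ cells. They were chosen from 93867 peaks on the 19 autosomes (96049 peaks in all) by their levels in TERT-heterozygous libraries. A level is given as CPM, the count of a peak scaled to the total count of its library. Members had at least 10 CPM on average in the control KIT-positive libraries, at least 3 times the mean of the control KIT-negative libraries, and a mean in later germ cells of at most KIT-positive divided by 4. A further 275 autosomal peaks met the first 2 conditions and not the third. The control and later values therefore chose the members and are given as a description. The TERT-deleted libraries were not used in the choice and carry the tests.

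The series asked how acute deletion of TERT, the reverse transcriptase of telomerase, alters open chromatin in spermatogonia. ATAC-seq was made from 22 libraries of FACS-sorted testicular cells of C57BL/6 mice aged 8 to 12 weeks. Spermatogonia were collected 7 days after tamoxifen and sorted into MCAM-high:KIT-, MCAM-Med:KIT- and KIT-positive cells. The first 2 populations are called undifferentiated in the labels and the third differentiating. Control libraries, titled TERT-hetero, numbered 3, 2 and 3 in these populations, and libraries titled TERT-deleted numbered 3 in each. The genotype entry reads TertCreER/+:Rosalsl-Tdtomato/+ for both, so all 17 spermatogonial libraries carry the TertCreER allele, and the deletion rests on the titles alone. Cre is thus driven from the Tert locus, and whether every sorted cell recombined was not given. The 5 later libraries have the genotype TertTdtomato/+ and are spermatocytes or round spermatids. Their genotype differs from that of the control spermatogonia, and no day after tamoxifen is given for them. Cell stage, allele and tamoxifen therefore cannot be told apart between the later libraries and the control spermatogonia. For 4 of the 5, the title and the library name disagree on the cell type, and they are treated as 1 group. Nothing in the labels says that replicates are separate mice, and a p-value here measures only how far these libraries spread, which may be technical. The names of the 5 later libraries all begin with TERT-TdTom-Het1, so these may come from 1 source, and their SD may be technical too.

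KIT is the receptor for stem cell factor. Undifferentiated spermatogonia begin to express it when they commit to differentiation under retinoic acid, and KIT-positive cells then divide several times before they enter meiosis. ATAC-seq uses Tn5 transposase to insert adapters where DNA is accessible, so a high count marks open chromatin at a promoter or a distal element such as an enhancer. Distal elements are typically more specific to a stage than promoters, many of which stay open in most cells. Peaks are named here by the gene they lie in, end at or lie nearest to, a matter of position that does not show which gene a site acts on.

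Sequence was at hand only for the windows from 250 bases before to 50 bases after annotated gene starts, from RefSeq (GRCm38.p6), and 22 of the 1132 sites overlapped such a window, 23 windows in all. The 250 upstream bases are shown for H3f4 and H4c9, histone genes at 2 of the 3 strongest members that overlap a start (the other is at G6bos), and for Gm41591 and Gm39852, both of which hold the DMRT motif ACATTGT. H3f4 encodes an H3 histone and H4c9 an H4 histone of the clustered, multicopy families, where reads of near-identical copies may be misplaced, and the other 2 are lncRNA genes in RefSeq. The stretches are chr11:58961461-58961710 (plus strand) for H3f4, chr13:22041363-22041612 (minus) for H4c9, chr17:47988165-47988414 (minus) for Gm41591 and chr2:74606233-74606482 (minus) for Gm39852. Each is written 5′ to 3′ on the gene's strand, ending at the base before the start, and capitals mark matches on either strand to ACATTGT, to the NF-Y motif CCAAT or to the SP and KLF motif GGGCGG.
H3f4: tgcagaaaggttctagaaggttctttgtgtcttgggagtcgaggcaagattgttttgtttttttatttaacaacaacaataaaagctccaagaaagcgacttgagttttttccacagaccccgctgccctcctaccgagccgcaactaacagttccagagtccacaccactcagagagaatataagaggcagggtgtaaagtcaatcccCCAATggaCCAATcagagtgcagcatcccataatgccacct
H4c9: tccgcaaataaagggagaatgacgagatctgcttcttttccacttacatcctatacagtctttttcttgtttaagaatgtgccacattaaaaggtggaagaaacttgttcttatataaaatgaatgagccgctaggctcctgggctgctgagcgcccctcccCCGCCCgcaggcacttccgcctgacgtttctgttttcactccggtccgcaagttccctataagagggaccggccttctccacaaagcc
Gm41591: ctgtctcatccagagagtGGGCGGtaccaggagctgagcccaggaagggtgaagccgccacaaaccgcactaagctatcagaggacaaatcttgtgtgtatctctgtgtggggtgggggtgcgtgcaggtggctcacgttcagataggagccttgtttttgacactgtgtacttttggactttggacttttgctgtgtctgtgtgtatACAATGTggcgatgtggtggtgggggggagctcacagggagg
Gm39852: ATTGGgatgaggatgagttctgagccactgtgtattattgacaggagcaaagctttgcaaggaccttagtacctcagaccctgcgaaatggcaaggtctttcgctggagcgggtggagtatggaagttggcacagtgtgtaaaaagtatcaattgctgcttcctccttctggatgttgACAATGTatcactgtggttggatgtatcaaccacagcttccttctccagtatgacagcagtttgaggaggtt

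The H3f4 upstream stretch holds a pair of CCAAT matches near the start, and the H4c9 stretch 1 GGGCGG match. Gm41591 and Gm39852 each have 1 ACATTGT match in these bases. In control KIT-positive libraries the Gm41591 peak (chr17:47987756-47988434) had 33.2 ± 9.44 CPM (SD, n = 3), against a mean of 4.57 CPM in the 5 KIT-negative and 4.20 ± 2.47 CPM in the later libraries (n = 5). The Gm39852 peak (chr2:74606167-74606603) had 11.2 ± 4.29, 2.85 and 2.15 ± 1.85 CPM in the same groups.

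Total counts ranged from 922085 to 3358377 per library, and 3 counts correspond to 0.893 to 3.25 CPM, so levels of members outside KIT-positive cells lie near what a few counts give. Differences between such low levels in single libraries were not detectable at this depth. Even counts made up 48.8 to 73.9% of the nonzero values, and an excess of them is seen when a fragment is counted by each of its ends. Among control KIT-negative libraries 2 stood apart: the members held 0.516% of the counts of MCAM-high replicate 1 and 0.495% of MCAM-medium replicate 2, against 0.255 to 0.286% in the other 3. The rule found 1325 sites without the first of these, 1266 without the second and 1661 without both, of which 1116 were among the 1132. In bulk libraries, fewer cells with an open site and less opening per cell cannot be told apart.

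Marker peaks were checked for the sorted populations. The peak at the end of Kit averaged 58.8 CPM in control KIT-positive cells, 33.1 in MCAM-high and 24.3 in MCAM-medium cells. The peaks at the ends of Stra8, a gene induced by retinoic acid and needed for meiotic entry, summed to 43.1 CPM for KIT-positive cells and 20.1 and 21.5 CPM in the others. Nanos2, an RNA-binding protein of undifferentiated cells, had 2.57 against 12.3 and 12.9 CPM. These 3 go in the labelled direction, though the Kit peak was well above 0 in the KIT-negative cells. So do the undifferentiated markers Gfra1 (20.6 against 36.2 and 27.0 CPM) and Ret (32.2 against 45.8 and 49.1 CPM). Zbtb16 (34.45 against 45.2 and 41.5 CPM) and Nanos3 (2.62 against 4.92 and 6.27 CPM) go the same way, and Bcl6b differed little (23.9 against 24.9 and 26.6 CPM). Other markers of the same lists do not go in that direction. Sohlh2, a transcription factor of differentiating spermatogonia, had 52.6 against 53.8 and 54.7 CPM, and Etv5 and Id4, markers of undifferentiated cells, had 147 against 131 and 126 CPM and 40.7 against 29.3 and 30.7 CPM. Summed over the differentiating list, the control KIT-positive libraries (198 to 221 CPM) lay above the KIT-negative ones (147 to 178 CPM). Over the undifferentiated list they overlapped (267 to 389 and 329 to 382 CPM). Both lists overlapped in the deleted libraries. There the differentiating list summed to 196 to 207 CPM for KIT-positive and 158 to 217 CPM for KIT-negative libraries. The undifferentiated list summed to 296 to 389 and 289 to 323 CPM. Mast cells and Leydig cells can also carry KIT. Of 8 mast cell markers only Hdc had a gene-end peak, at 0 to 5.97 CPM in control KIT-positive, 0 to 1.71 CPM for control MCAM-high and 0 in both control MCAM-medium libraries, whereas Cpa3, Mcpt4, Tpsb2, Cma1 and Fcer1a had none. In deleted cells the Hdc peak had 1.11 to 2.18 CPM for KIT-positive, 0.833 to 6.53 CPM for MCAM-high and 0 CPM for MCAM-medium libraries. The later libraries had 13.75 to 25.3 CPM there. Of 8 Leydig markers 2 had peaks, summing to 34.7 to 52.2 CPM in control KIT-positive and 53.8 to 73.1 CPM in control KIT-negative libraries. Of 11 macrophage and leukocyte markers 5 had peaks, summing to 58.9 to 67.9 CPM and 79.5 to 97.1 CPM. The summed levels of the Leydig and leukocyte lists were thus lower in every control KIT-positive library than in every KIT-negative one. In deleted cells the Leydig sums overlapped (30.3 to 56.0 CPM for KIT-positive and 51.5 to 72.3 CPM for KIT-negative libraries) and the leukocyte sums did not. Of 9 Sertoli markers 7 had peaks, summing to 129 to 161 CPM in control KIT-positive and 163 to 185 CPM in control KIT-negative libraries, without overlap. In deleted cells the Sertoli sums overlapped (101 to 163 and 143 to 191 CPM). Peritubular and endothelial markers overlapped in control cells (104 to 177 and 149 to 183 CPM). The part of these cells in the results was not tested. For round spermatids, 8 of 10 markers had peaks, at 294 to 464 CPM in later libraries and 30.6 to 45.1 CPM in control spermatogonia.

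The sites took a small share of each library until KIT appeared. Their summed share of counts was 2.38, 1.94 and 2.03% in the 3 control KIT-positive libraries, 0.255 to 0.516% in the 5 control KIT-negative libraries, and 0.209, 0.249, 0.275, 0.286 and 0.294% in the later ones. In libraries the rule did not use, it was 1.94, 2.19 and 1.65% in deleted KIT-positive cells, 0.591, 0.542 and 0.566% in deleted MCAM-medium cells and 0.457, 0.349 and 0.372% in deleted MCAM-high cells. All deleted KIT-positive libraries lay above all deleted KIT-negative ones, and the MCAM-medium libraries lay between them without overlap.

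**Figure D1:**
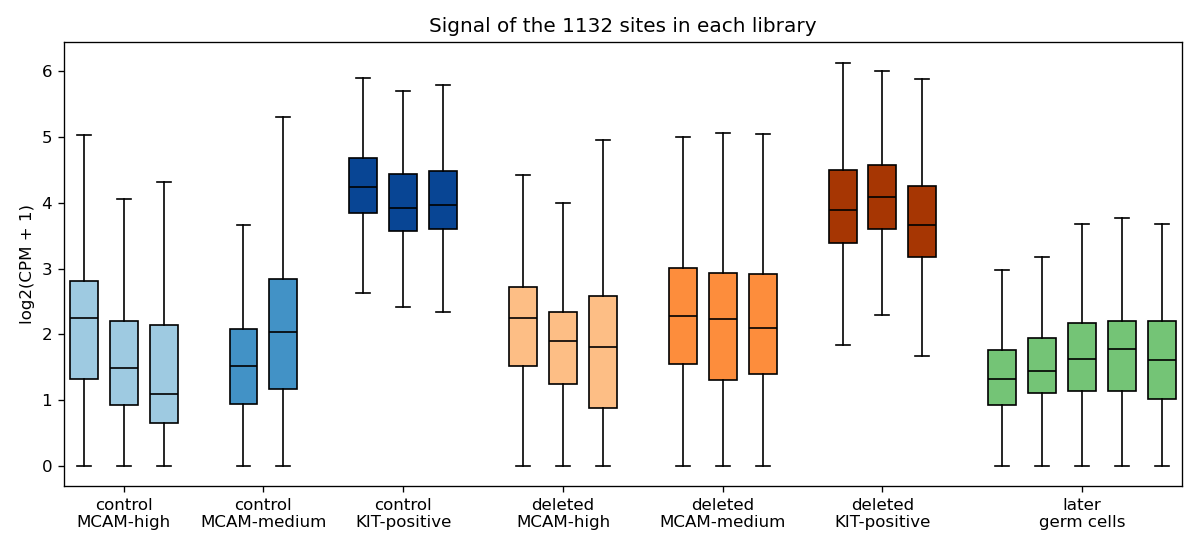
Signal of the 1132 sites in each library, as log2(CPM + 1) on the vertical axis; boxes show the middle of the distribution over sites with its median, whiskers follow Tukey's rule, and points beyond them are not drawn. Control KIT-positive and later libraries, and control KIT-negative ones, were used to choose the sites; the deleted libraries were not, and their KIT-positive medians of 11.6 to 16.1 CPM exceed the KIT-negative medians of 2.499 to 3.86 CPM.

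Over the members, the control KIT-positive mean had a median of 15.5 CPM (10.001 to 179), the control KIT-negative mean a median of 2.61 CPM and the later mean a median of 2.02 CPM. The median ratio of KIT-positive to KIT-negative was 5.97. At 6 members the 5 KIT-negative libraries had no count, which puts the control fold at 37.5 or more at each of them, against a floor of 3 counts over that group. No member was at 0 in all later libraries. At 1038 of 1132 members the lowest control KIT-positive library exceeded the highest KIT-negative one, and at 1110 it exceeded the highest later one, beside 8.07% and 16.5% of all autosomal peaks. The rule chose the sites on these libraries, so nothing is read from these counts. Just inside the level threshold were peaks near Ap5m1 (10.001 CPM) and at Gm42266 (10.01 CPM), and just outside were peaks near Katnal1 (9.96 CPM) and at Slc13a4 (9.99 CPM). Just inside the ratio threshold were peaks at Gm31785 (3.0004) and Bicc1 (3.006), with Clmn (2.992) and a peak near BC107364 (2.992) just outside. For the ratio of later to KIT-positive, a peak near Snx13 (0.2492) and one in Dact2 (0.2496) were just inside, and peaks at Mroh5 (0.2503) and Gm26562 (0.2516) just outside.

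The strongest members were at genes with different roles. H3f4 (chr11:58961493-58962559, at the gene's end and also at an end of Trim17) had 143, 194 and 201 CPM in control KIT-positive libraries, with 31.2, 21.1 and 28.0 CPM for MCAM-high and 31.1 and 31.0 CPM for MCAM-medium ones. In deleted libraries the same peak had 161, 157 and 176 CPM for KIT-positive cells, then 24.3, 34.1 and 24.99 CPM for MCAM-high and 43.8, 25.1 and 30.3 CPM for MCAM-medium cells, and in later cells 48.2, 45.8, 30.01, 36.8 and 43.7 CPM. All 6 KIT-positive libraries lay above all 16 others, and the level outside KIT-positive cells was itself higher than that of most members in KIT-positive cells. Its log2 fold change between deleted KIT-positive and KIT-negative cells was 2.60 ± 0.18 (SE, edgeR adjusted p = 4.18e-43).

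Thra encodes thyroid hormone receptor alpha, and its gene body held a peak (chr11:98743676-98744505) with 85.0, 80.2 and 50.7 CPM in control KIT-positive and 2.79 to 11.8 CPM in the 5 control KIT-negative libraries. In deleted cells this peak had 46.7, 106 and 72.8 CPM for KIT-positive, against MCAM-high libraries at 7.47, 6.82 and 5.83 CPM and MCAM-medium libraries at 9.66, 11.1 and 4.91 CPM. Later libraries had 3.02 to 9.07 CPM, a range that overlaps the KIT-negative one. Polm, a DNA polymerase of end joining, had a gene-end peak (chr11:5839725-5840742) at 85.0, 55.3 and 70.5 CPM in control and 59.7, 111 and 58.2 CPM in deleted KIT-positive libraries, against 1.71 to 8.05 CPM in control and 5.83 to 18.7 CPM in deleted KIT-negative ones. The log2 fold change in deleted cells was 3.48 ± 0.26 at Thra and 3.17 ± 0.25 at Polm (SE, edgeR adjusted p = 1.39e-37 and 6.89e-34). An intergenic peak near Psd2 (chr18:35934475-35934977) had 55.2, 73.8 and 96.9 CPM in control and 52.8, 58.2 and 43.0 CPM in deleted KIT-positive libraries, with 0.739 to 6.44 CPM in the 6 deleted KIT-negative ones. The remaining members among the strongest 8 were at Arhgef7, an exchange factor for small GTPases, at H4c9, in Ttc34, and at Mpig6b, a platelet receptor gene whose end also adjoins G6bos. In deleted cells their log2 fold changes were smaller, from 1.74 at Arhgef7 to 2.15 at Ttc34, and each passed.

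**Figure D2:**
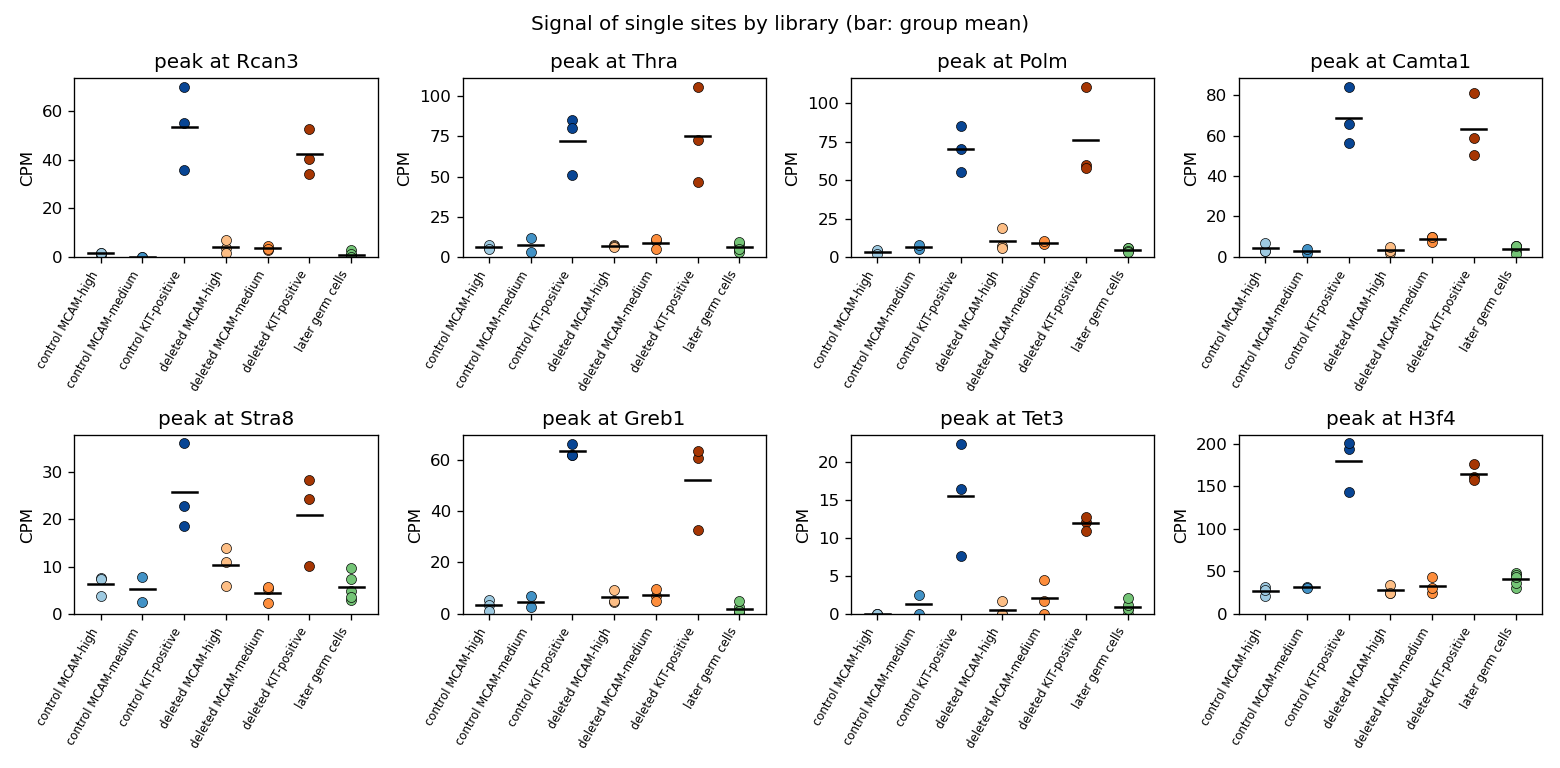
Signal in CPM of single sites in each library (points) with group means (bars), for 8 peaks named in the text; the Camta1 and Greb1 panels show the member with the highest control KIT-positive level in that gene. At each, the KIT-positive libraries of both genotypes lie above the later ones, whose levels at H3f4 reach 48.2 CPM.

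The same contrast was tested in the deleted libraries, where KIT-positive cells were compared with the mean of both KIT-negative populations. Of 83585 peaks tested, 7057 were higher (8.44%) and 3052 lower (3.65%) at an adjusted p under 0.05 (edgeR quasi-likelihood test, Benjamini-Hochberg). All 1132 members were tested, and 976 were higher (86.2%) and 0 lower. By the rule members had at least 10 CPM in control KIT-positive cells, whereas the median over tested autosomal peaks was 4.92 CPM. The shares over all peaks are thus not matched for level. All 1132 fitted log2 fold changes were above 0, as were 45.4% of those of all peaks. At an unadjusted p under 0.05, 1067 members passed, beside 23% of all peaks. DESeq2 called 894 members higher, beside 6.6% of all peaks, and none lower. Every deleted KIT-positive library lay above every deleted KIT-negative library at 810 members (71.6%), compared with 5.82% of all tested peaks, and below at 0 members, compared with 7.16%. The median log2 fold change was 2.31 over the members and -0.10 over all tested peaks. Scaling by total counts in place of TMM moved the latter to -0.27 and the former to 2.14, and the calls over all peaks to 5007 higher and 4694 lower. Of the 976 sites, 914 were also called under that scaling and 733 in all 9 fits that left out 1 library.

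**Figure D3:**
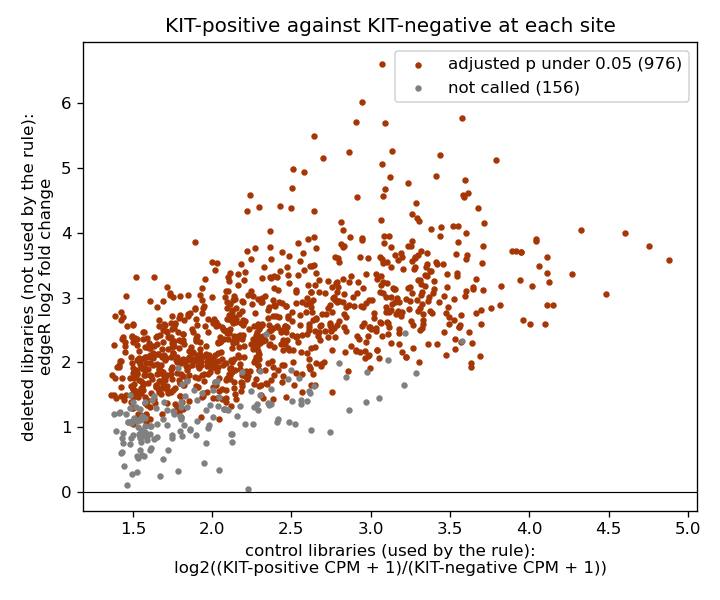
Each point is 1 of the 1132 sites: the horizontal axis is log2 of the control KIT-positive over KIT-negative mean, with 1 CPM added to each, and the vertical axis is the edgeR log2 fold change between deleted KIT-positive and KIT-negative libraries. The 976 called sites are in colour and the 156 others in grey, and all points lie above 0 on the vertical axis.

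Levels were similar in both genotypes as a description. In deleted cells, the median over members was 14.1 CPM for KIT-positive and 3.45 CPM in KIT-negative cells, beside 15.5 and 2.61 CPM in the control cells that chose the sites. The 3-fold ratio was met by 805 members with deleted values and the 10 CPM level by 852, and all 3 conditions of the rule by 647. Across the 1132 sites the log2 ratios of control and deleted cells had a Pearson r of 0.615 and a Spearman coefficient of 0.619, given without a test because sites share libraries and low counts. Differences between genotypes at the members were not tested, since selection on control values shifts them.

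The called share was higher at sites with a higher control level. It was 75.6% of 529 members from 10 to 15 CPM, 93.3% of 282 from 15 to 20 CPM, 96.4% of 220 from 20 to 30 CPM and 100% of 101 members of at least 30 CPM. The 156 members that did not pass had medians of 11.8 CPM in control KIT-positive, 7.48 CPM in deleted KIT-positive and 4.13 CPM in deleted KIT-negative cells, with a median log2 fold change of 1.13. The 3 members with the smallest change were in Camkmt, near Ipmk and near Tshz2. Camkmt, which encodes a calmodulin methyltransferase, had a peak at 14.9, 9.76 and 5.58 CPM in control KIT-positive libraries but 1.73, 1.66 and 2.18 CPM in deleted ones, and 0.833 to 3.41 CPM in deleted KIT-negative cells. Its log2 fold change was 0.05 ± 0.99 (SE, edgeR adjusted p = 0.989), and those near Ipmk and Tshz2 were 0.11 ± 0.56 and 0.25 ± 0.55 (adjusted p = 0.948 and 0.857). Each of these 3 signs turned under at least 1 alternative.

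Among members in or at a gene, the 12 largest log2 fold changes in deleted cells were at genes of varied function. Ranbp1, a cofactor of the Ran GTPase in nuclear transport, had a gene-body peak (chr16:18245265-18245523) at 17.3, 17.2 and 11.7 CPM in deleted KIT-positive, 3.73, 0 and 0 CPM for MCAM-high and 0 CPM in all MCAM-medium libraries. Control KIT-positive libraries had 20.1, 14.1 and 10.7 CPM there and later ones 0.573 to 2.06 CPM. The log2 fold change was 5.70 ± 0.75 (SE, edgeR adjusted p = 1.21e-11). Cad, the multi-enzyme protein that begins pyrimidine synthesis, had a peak (chr5:31064634-31064977) at 12.1, 11.1 and 6.55 CPM in deleted KIT-positive libraries and at most 1.67 CPM in the 6 KIT-negative ones. Foxp1, a forkhead transcription factor, had a peak (chr6:98984649-98985042) at 10.4, 16.1 and 10.9 CPM against at most 1.93 CPM. In both cases no deleted KIT-negative library reached the lowest deleted KIT-positive one. In control cells the Foxp1 peak had 14.9, 2.17 and 15.2 CPM for KIT-positive libraries and up to 2.26 CPM in KIT-negative ones, which overlap.

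Others of the 12 largest included peaks in Eftud2, a GTPase of the spliceosome, Mrpl12, a mitochondrial ribosomal protein, Mrtfb, a coactivator of SRF, Adh1, an alcohol dehydrogenase, Cnksr3 and Tango6, and at Gm52690, with log2 fold changes from 4.77 at Eftud2 to 6.01 at Gm52690. At Ttl, which re-adds tyrosine to tubulin, a peak (chr2:129071691-129072045) had 6.92, 12.2 and 5.10 CPM in deleted KIT-positive libraries and no count in any of the 6 KIT-negative ones. Against 3 counts over that group it was at least 21.2-fold higher, and the control libraries had 20.9, 8.68 and 4.06 CPM for KIT-positive and 0 to 0.898 CPM in KIT-negative cells. The 11 named here passed under every alternative in which they were tested. They were picked by size among the members, so their size is no measure of the set.

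KIT-positive cells were also compared with MCAM-medium cells, since both were gated at a medium MCAM level as far as the labels say. In the deleted libraries 3676 of 83585 peaks were higher (4.4%) and 1898 lower (2.27%), and 701 of 1132 members were higher (61.9%) and 0 lower (edgeR adjusted p under 0.05; 947 members and 17.9% of all peaks at an unadjusted p under 0.05). Without deleted KIT-positive replicate 2 the member count was 454. Every KIT-positive library lay above every MCAM-medium one at 868 members (76.7%), against 8.53% of all tested peaks, and the median log2 fold change was 1.96. It was above 0 at 1126 members, against 45.6% of all peaks. DESeq2 called 562 members higher, beside 3.39% of all peaks, and 0 lower.

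Few members passed the test between the KIT-negative populations. In the deleted libraries 607 of 83585 peaks were higher in MCAM-medium than in MCAM-high cells (0.726%) and 56 lower (0.067%). Of the members 36 were higher (3.18%) and 1 lower. With an unadjusted p under 0.05 in either direction were 234 members (20.7%), beside 9.59% of all peaks. The members' median log2 fold change was 0.52 (0.51 with members at 0 counts in one group set to their bound), against -0.01 over all peaks, and it was above 0 at 810 members (71.6%), against 49.7% of all peaks. Every MCAM-medium library lay above every MCAM-high one at 196 members (17.3%), against 8% of all peaks, and below at 38 (3.36%), against 7.71%. The member count is unstable: it was 22, 14, 17 and 20 without MCAM-high replicates 1 and 2 and MCAM-medium replicates 1 and 2 respectively, 10 with DESeq2 (beside 0.256% of all peaks) and 7 when control libraries shared the fit. In group means, the MCAM-medium level was above MCAM-high at 788 members (69.6%) in deleted cells, against 47.4% of all autosomal peaks. In the control cells that chose the sites this held at 610 members (53.9%), against 47.4% of all autosomal peaks. The summed share of counts reached 11.3% of the way from MCAM-high to KIT-positive in deleted MCAM-medium cells and 1.79% in control ones, where the libraries of both populations overlap.

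**Figure D4:**
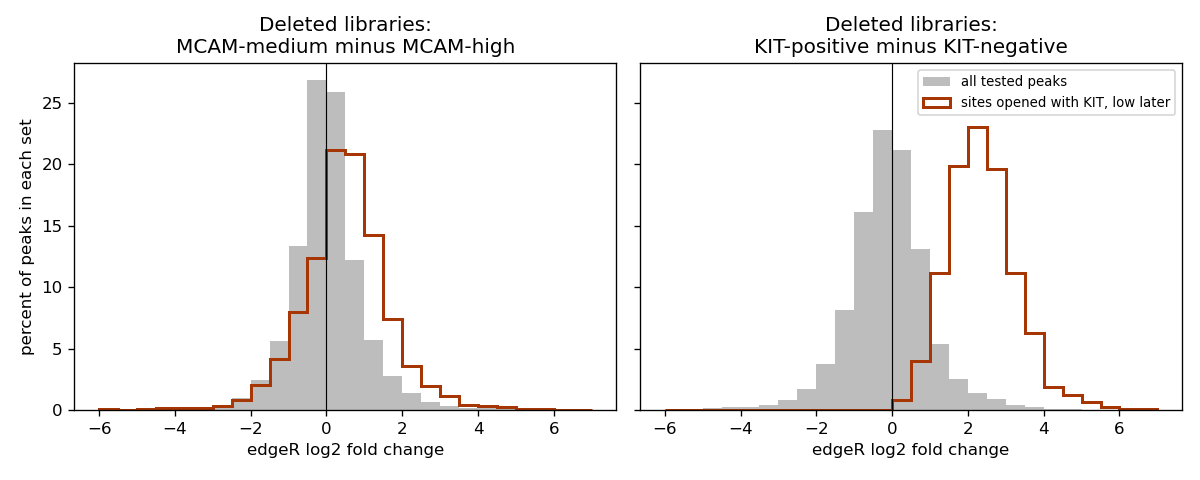
Distribution of edgeR log2 fold changes between deleted populations (horizontal axis) as the percent of peaks in each set (vertical axis), for all 83585 tested peaks (grey) and the 1132 sites (line); values beyond the axis are placed in the end bins. The line is centred near 0.52 for MCAM-medium minus MCAM-high and near 2.31 for KIT-positive minus KIT-negative.

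Among the members called between these populations, Runx3, a Runt family transcription factor, had a gene-end peak (chr4:135177578-135178004) at 0, 0 and 1.67 CPM for deleted MCAM-high, 11.6, 6.65 and 8.999 CPM for MCAM-medium and 23.4, 15.5 and 8.01 CPM for KIT-positive libraries. The MCAM-medium and KIT-positive ranges overlap there. In control cells the same peak had 0.619 to 5.64 CPM in KIT-negative and 13.01 to 18.6 CPM for KIT-positive libraries, without the intermediate level. Its log2 fold change between MCAM-medium and MCAM-high was 3.88 ± 0.83 (SE, edgeR adjusted p = 0.00229), and 0.06497 was the adjusted p with DESeq2. Cnrip1, which encodes a protein that binds the cannabinoid receptor, had a gene-body peak at 0, 1.36 and 0 CPM for MCAM-high, 7.73, 8.86 and 8.18 CPM for MCAM-medium and 15.6, 19.97 and 10.9 CPM for KIT-positive deleted libraries (log2 fold change 3.76 ± 0.85, edgeR adjusted p = 0.00446). Peaks in Cul1 and Hhipl1 and one near Kbtbd6 also passed. With no count in MCAM-high cells, those in Cul1 and Hhipl1 were at least 5.99-fold and 4.94-fold higher against 3 counts over the group. The calls of all 5 were lost under at least 2 alternatives.

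In later germ cells the members were near their level in KIT-negative spermatogonia, as the rule requires low levels in both. The later mean was below the control KIT-negative mean at 682 members and above it at 450, and below the deleted KIT-negative mean at 891. The rule held the later and control KIT-negative means low and did not use the deleted ones, so nothing is read from these counts. By library name, the median over members was 2.26 CPM in 2 libraries named spermatocyte and 1.86 CPM in 3 named round spermatid, and 683 members were higher in the first and 449 in the second. The libraries did not overlap at 182 of these (16.1% of members) and 67 (5.92%) respectively, beside 14% and 9.21% of all autosomal peaks. All peaks thus lean the same way. The share of all peaks higher in either set of libraries was not taken, so nothing is read from the 683 and 449. Because the titles name the cell types otherwise, all of these are differences between library names only. Replicates 1 and 2, titled spermatocytes, had spermatocyte marker sums of 457 and 485 CPM, against 397 to 410 CPM in the others. The others, titled round spermatids, had round spermatid sums of 371 to 464 CPM, against 294 and 328 CPM. These marker sums go with the titles and not with the names. By title the direction is the reverse: the members' summed share was 0.209 and 0.249% in spermatocytes and 0.275 to 0.294% in round spermatids. The peaks with the highest ratio of later to KIT-positive were in Dact2, an inhibitor of Nodal and WNT signalling, near Snx13 and near Sybu. The 5 later libraries had 1.49, 3.44, 2.79, 3.02 and 2.57 CPM at Dact2, where deleted KIT-positive libraries had 20.8, 17.2 and 10.9 CPM. At Greb1, a gene known for its induction by estrogen, the strongest of 3 members (chr12:16760226-16760793) had 2.68, 0.573, 0, 4.83 and 1.03 CPM in later, 61.9, 66.2 and 61.9 CPM in control KIT-positive and 60.6, 63.2 and 32.8 CPM in deleted KIT-positive libraries. The later mean at this site was 2.88% of the control KIT-positive mean.

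The 275 peaks that opened with KIT and were not low later gave a comparison for measures other than those of the rule. In deleted cells 204 of them were higher in KIT-positive cells (74.2%), with a median log2 fold change of 1.81, beside 86.2% and 2.31 for the members. Their control KIT-positive median was 13.1 CPM, lower than the members' 15.5 CPM, and the called share depends on that level. They lay at a gene end more often, at 22.9% compared with 9.89% of the members, and overlapped a promoter window at 7.27% compared with 1.94%. These differences between the sets were not tested.

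Most members lay away from gene starts. Within 1 kb of either end of a gene were 112 (9.89%), in a gene body 639 (56.4%) and between genes 381 (33.7%). Of all autosomal peaks 38.8% were intergenic, 36.7% in gene bodies and 24.5% near an end. Of the 22650 autosomal peaks with at least 10 CPM in control KIT-positive cells, 56.1% were at a gene end and 42.2% overlapped a promoter window, against 14.1% of all autosomal peaks and 1.94% of the members. The rule requires low signal in other cells, which many promoters do not meet, so no test was made of these shares. The median distance to the nearest annotated start was 16688 bp for members and 19644 bp for all autosomal peaks, and their median widths were 419 and 416 bp. Chromosome 18 had no window, so its peaks count as not overlapping a promoter and are left out of the distances to a start. By position, medians of the log2 fold change in deleted cells were 2.04 at gene ends, 2.35 in gene bodies and 2.29 between genes.

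**Figure D5:**
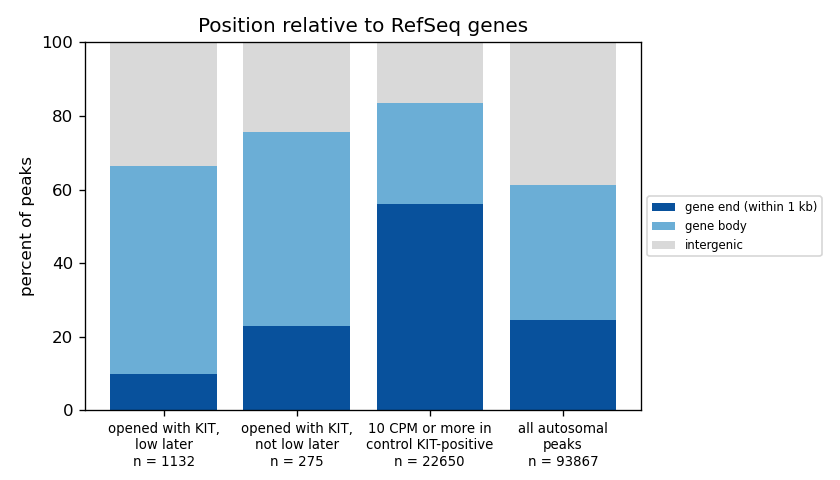
Percent of peaks (vertical axis) between genes, in gene bodies or at gene ends, by RefSeq genes, for the 1132 sites, the 275 peaks that opened with KIT and were not low later, autosomal peaks of at least 10 CPM in control KIT-positive cells, and all autosomal peaks. Gene ends make up 9.89% of the first group and 56.1% of the third.

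The members were spread over all 19 autosomes, at 1.21% of their peaks. The share was 2.09% on chromosome 19 and 1.97% on chromosome 11, where H3f4, Thra and Polm lie, and 0.644% on chromosome 14. Only 15 gaps between neighbouring members were 10 kb or less. In or at genes lay 751 members, in 713 genes, and 30 genes had 2 or more. Camta1, a calmodulin-binding transcription activator, held 4, and Fbn2 (fibrillin 2), Greb1, Samd4 (an RNA-binding repressor of translation) and Sh3pxd2a (a podosome scaffold) held 3 each, as did Zbtb7c and Trak1. These genes are long, and the number of members was not set against gene length.

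The 4 Camta1 sites on chromosome 4 differed in level and fold change. The strongest in control KIT-positive cells (chr4:151445214-151446143) had 84.3, 56.4 and 66.0 CPM in control and 58.8, 81.0 and 50.2 CPM in deleted KIT-positive libraries, 1.87, 2.73 and 5.00 CPM for deleted MCAM-high and 9.66, 7.39 and 9.82 CPM in deleted MCAM-medium libraries. Its log2 fold change was 3.72 ± 0.29 (SE, edgeR adjusted p = 6.35e-34), and the MCAM-medium libraries lay above the MCAM-high ones without passing the test between them (adjusted p = 0.155). The sites starting at 151537019 and 151634242 had log2 fold changes of 3.37 ± 0.34 and 2.37 ± 0.38 and passed. The site with the smallest fold change, starting at 151109805, had 18.2, 23.3 and 16.7 CPM in deleted KIT-positive and 4.43 to 12.9 CPM in deleted KIT-negative libraries. Its log2 fold change of 1.14 ± 0.36 (adjusted p = 0.0184) passed, but the adjusted p was 0.0628 with total counts, 0.067 without deleted MCAM-medium replicate 2 and 0.173 without deleted KIT-positive replicate 2.

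At Greb1 the log2 fold changes of the 3 members were 3.12, 2.61 and 1.16, and the last (adjusted p = 0.0438) was lost under several alternatives. At Fbn2 they were 3.27, 3.01 and 2.56 and at Sh3pxd2a 4.38, 3.24 and 2.76, and all passed. The call at the Fbn2 site starting at 58115968 was lost with DESeq2 (adjusted p = 0.0988), and that at the Sh3pxd2a site starting at 47462098 without deleted KIT-positive replicate 3 (edgeR adjusted p = 0.0525). At Samd4 the members starting at 46903761 and 47034348 passed with 3.19 and 2.43. The second of these had 3.46, 32.2 and 9.46 CPM in deleted KIT-positive libraries, and without replicate 2 its log2 fold change was 1.17 (edgeR adjusted p = 0.387). The third, starting at 46911986, had 5.19, 10.5 and 10.2 CPM in deleted KIT-positive against 1.87 to 9.66 CPM in deleted KIT-negative libraries and did not pass (log2 fold change 0.89, edgeR adjusted p = 0.296).

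Gene lists of the pathways around KIT held 0 to 2 members each, to be read against the 1.21% of all autosomal peaks that were members. Counts of peaks called in each list stand beside 8.44% higher and 3.65% lower among all tested peaks. The list of differentiating spermatogonia had 76 autosomal peaks in or at its 24 genes, of which 1 was a member, in Stra8, and 16 of 69 tested peaks were higher and 3 lower in deleted KIT-positive cells. The list of KIT, PI3K and MAPK signalling had 134 peaks and 1 member, in Stat5b, a transcription factor activated by cytokine receptors, with 31 of 128 tested peaks higher and 1 lower. Kit itself held none. None lay in or at 23 genes of retinoic acid signalling (73 peaks; 4 of 71 higher, 0 lower), 32 genes of undifferentiated spermatogonia (107 peaks; 8 of 99 higher, 3 lower) or 23 of spermiogenesis (47 peaks; 4 of 32 higher, 1 lower). Nor did any lie at 27 genes of WNT and Notch signalling (137 peaks; 8 of 128 higher, 0 lower). In the list of replication and cell cycle, 27 of 42 tested peaks were higher and 0 lower, but 0 of its 44 peaks were members. Meiosis genes had 89 peaks and 1 member, again in Stra8, with 14 of 80 higher and 0 lower. The calcineurin and NFAT list had 2 members among 68 peaks (2.94%), with 9 of 61 higher and 2 lower, and the DNA methylation list 1 among 37 (2.7%), with 6 of 35 higher and 2 lower. These shares rest on 1 or 2 sites.

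Stra8 held its member in the gene body (chr6:34921867-34922286), 1704 bp from the nearer end. It had 18.6, 22.8 and 36.0 CPM in control KIT-positive libraries, 3.76, 7.63 and 7.43 CPM for MCAM-high and 7.89 and 2.48 CPM for MCAM-medium ones. Deleted libraries had 24.2, 28.3 and 10.2 CPM for KIT-positive, 14.0, 10.9 and 5.83 CPM for MCAM-high and 5.15, 2.22 and 5.73 CPM for MCAM-medium cells, so that KIT-positive replicate 3 fell within the MCAM-high range. The log2 fold change was 1.82 ± 0.38 (SE, edgeR adjusted p = 7.72e-05). Later libraries had 7.44, 2.87, 4.88, 3.62 and 9.76 CPM, which overlap the KIT-negative levels.

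Rcan3, an inhibitor of the phosphatase calcineurin, had the largest control contrast among the listed genes. Its gene-body peak (chr4:135430199-135430747) had 55.2, 35.8 and 70.0 CPM in control KIT-positive, 0.752, 1.796 and 1.71 CPM for control MCAM-high and 0 CPM in both control MCAM-medium libraries. Deleted libraries had 52.8, 40.5 and 34.2 CPM for KIT-positive, 3.73, 6.82 and 1.67 CPM for MCAM-high and 4.51, 2.95 and 3.27 CPM for MCAM-medium cells. Later libraries had 0.596, 0, 2.79, 1.21 and 0 CPM, or 1.71% of the control KIT-positive mean. No library outside KIT-positive cells reached 7 CPM, and the log2 fold change in deleted cells was 3.58 ± 0.34 (SE, edgeR adjusted p = 6.40e-22). Nfatc1, a transcription factor that calcineurin activates, had a gene-body peak (chr18:80711201-80711655) at 23.4, 30.5 and 12.4 CPM in deleted KIT-positive and 1.64 to 7.09 CPM in deleted KIT-negative libraries (log2 fold change 2.66 ± 0.42, edgeR adjusted p = 2.62e-08).

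Tet3, a dioxygenase that oxidises 5-methylcytosine, had a gene-body peak (chr6:83430570-83430905) at 12.1, 12.8 and 10.9 CPM in deleted KIT-positive, 0, 0 and 1.67 CPM for MCAM-high and 4.51, 0 and 1.64 CPM for MCAM-medium libraries. The log2 fold change was 3.51 ± 0.65 (SE, edgeR adjusted p = 3.59e-06), and in control MCAM-high libraries it had no count. The Stat5b peak (chr11:100835264-100835651) had 12.1, 7.76 and 21.1 CPM in deleted KIT-positive and 0 to 5.73 CPM in deleted KIT-negative libraries, with a log2 fold change of 2.98 ± 0.57 (adjusted p = 8.55e-06). At both genes the KIT-positive and KIT-negative libraries did not overlap.

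In all, 20 motifs were searched on both strands of the 300-base windows at gene starts, as the letters of the motif only. The autosomal windows at hand numbered 31365, with none on chromosome 18. ACATTGT, bound by DMRT factors such as DMRT1, was in 4 of 23 windows overlapping members (17.4%), at Gm39852, Gm38661, Gm39446 and Gm41591, against 3.01% of all windows at hand and 1.71% of the 16511 windows that overlap any peak. GGGCGG was in 7 of 23 (30.4%), against 36.0% of all and 59.3% of windows with a peak, and CCAAT in 7 (30.4%), against 37.3% and 37.8%. The RUNX motif TGTGGT was in 3 of 23 (13.04%), against 16.7% and 12.5%. The E-box CACGTG was in 2 of 23 (8.7%), against 7.14% and 9.74%. The cyclic AMP element TGACGTCA and the DR5 retinoic acid element were in 0 of 23, against 1.83% and 0.00956% of all windows. The windows cover 1.94% of the members, and sequence of the other sites was not analysed here.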

How the data were processed

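The authors deposited 1 table of raw read counts per peak, with chromosome, start and end per the file headers, and no normalization. The tools listed per the submitters' processing notes are Bowtie2, FastQC, Picard and SAMtools, and the builds listed, without their use, are GRCm38, hg19 and mm10. Peak calling, the counting tool, any Tn5 offset of reads, duplicate removal and the base from which starts count are not given in the sources used here. Starts are printed as deposited.

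Groups came from sample titles and marker entries. CPM divides each count by its column total (922085 to 3358377 counts in 22 libraries). Counting precision at 3 counts is 0.893 to 3.25 CPM, covers counting error only, and is too narrow if both fragment ends were counted.

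Tests used edgeR 4.0.16 (R 4.3.3) on the 9 deleted libraries: TMM scaling, a mean per group, quasi-likelihood F tests with 6 residual degrees of freedom and Benjamini-Hochberg adjustment over 83585 peaks with a mean of at least 1 CPM over the 8 control spermatogonial libraries. That filter uses no deleted library, and every member meets it through the rule, which requires a high level in control KIT-positive libraries. A standard error is the log2 fold change over the root of its F statistic, taken as positive. The script was tested on simulated data. Alternatives were DESeq2 1.42.0, total-count scaling, other filters, thresholds and fits, a replicate block, leaving out each library and other limits of the rule.

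Genes came from the RefSeq table of GRCm38.p6 (34631 protein-coding and lncRNA genes), which gives no exons; a gene end is within 1 kb of either annotated end. Named members are the 12 largest changes in or at genes, the 8 strongest, up to 3 per gene list, those of the 5 genes with most members, the 3 smallest changes, those beside each threshold, up to 5 called each way between the KIT-negative populations, and the 3 highest later relative levels. The members and lists were chosen with earlier results of these data known. A site that the rule for named genes selected is not reported here.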

Additional observations from a re-analysis of the deposited data

Results flagged for a closer look

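Later libraries with a value far from the other 4 were sought at the named peaks and in the members' summed share, 57 groups in all. For normally spread values chance alone gives about 1 in 20 such groups, and 6 were found, each with 1 high library. The values here are low counts with a floor at 0 from pooled cell types, so that rate may not hold. At Tango6 replicate 3 had 9.07 CPM and the others 1.21 to 3.44 CPM. At the Fbn2 site starting at 58115968, replicate 5 had 8.735 CPM and the others 0 to 2.29 CPM. Replicate 5 was also high at the Camta1 site starting at 151109805, with 5.138 CPM against 0 to 1.21 CPM. At Nfatc1 replicate 4 had 4.221 CPM against 0.893 to 1.40 CPM, at Stat5b replicate 3 had 2.093 CPM against 0 to 0.603 CPM, and at the Sh3pxd2a site starting at 47462098 replicate 1 had 2.084 CPM against 0 to 0.603 CPM. The Stat5b value is 3 counts.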

How the results depend on the processing

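The higher calls of members between deleted KIT-positive and KIT-negative cells stayed within 1.5 times of 976 under every alternative run, from 780 to 971 with 1 library left out. Peaks called lower in that contrast numbered 1333 at an adjusted p under 0.01, 4694 with total counts and 1899 with DESeq2, and 1896 to 2821 with 1 library left out. For KIT-positive against MCAM-medium cells, peaks called higher numbered 2121 at the stricter threshold and 2376 with total counts. Peaks called lower there numbered 848, 1046 with DESeq2 and 1179 with 17 libraries in the fit, and 1098 to 1929 with 1 left out. Members called higher were 454 to 727 with 1 left out. For MCAM-medium against MCAM-high, peaks called higher numbered 254, 214 and 84 in the same order (245 to 658 with 1 left out), and lower 9, 16 and 3 (9 to 73), 37 with filterByExpr and 26 with the replicate block. Members called there were 13, 10 and 7 higher (14 to 33 with 1 left out) and 1 to 2 lower.

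Names of the deleted libraries share a replicate number across the populations. Deviations of same-numbered libraries had correlations from -0.09 to 0.05. No shared deviation was visible, but such values in groups of 3 cannot show that the libraries are unpaired. With the replicate block 956 members were called higher in KIT-positive cells, 955 of them among the 976.

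The rule gave 1838 sites at 2 times and 688 at 5 times the KIT-negative level, 560 with the later level at most KIT-positive divided by 8, 2084 at 5 CPM and 321 at 20 CPM. It gave 645 with the highest later library and 137 when the lowest KIT-positive and highest KIT-negative libraries were also used. With TMM-scaled CPM 1314 sites met it, 1110 of them shared. It gave 1002 to 1342 with 1 library left out. Members at a gene end were 5.74% within 0.5 kb and 19.8% within 2 kb. Without single libraries, the log2 fold change ran from -0.086 to 0.41 near Ipmk, from -0.13 to 0.36 in Camkmt and from -0.00052 to 0.52 near Tshz2, and with total counts it was -0.070 near Ipmk and -0.12 in Camkmt. The causes were not tested. Of 56 named sites in the main contrast, 44 kept their direction and call under every alternative run. Low counts outside KIT-positive cells limit the folds of many members.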
